A study of Mus musculus with 2 samples.

Results

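The CXCR3 chemokine axis was followed here through 5 genes of the 55353 gene symbols in the count tables: the ligand genes Cxcl9 and Cxcl10, the receptor gene Cxcr3, and Ifngr1 and Ifngr2, which encode the chains of the interferon-γ receptor. The genes were picked by symbol from a stated list, which was proposed with their levels in cell classes and libraries already known. Their levels and ratios are therefore given as a description, with no test. All 5 symbols were found, each as 1 entry.

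The libraries came from dorsal skin of C57BL/6 mice aged 7 weeks. Mice of one group received Shi-Bi-Man together with imiquimod (SBM+imiquimod below), and mice of the other received imiquimod, so that imiquimod is common to both groups. Shi-Bi-Man is the preparation that the study set against psoriasis-like inflammation, and imiquimod is an agonist of the RNA sensor TLR7 that produces such inflammation in mouse skin. Each group was 1 library of single cells, the number of mice behind a library is not given in the sources used here, and no skin without imiquimod was analysed here.

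CXCL9 and CXCL10 are small secreted chemokines that attract activated T cells and NK cells carrying the receptor CXCR3. Interferon-γ, made by T and NK cells, binds IFNGR1, which signals together with IFNGR2 through JAK kinases to switch on both ligand genes; CXCL10 is also induced by type I interferons and by NF-κB. In skin the ligands can be made by endothelial cells, fibroblasts, keratinocytes and myeloid cells.

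On GRCm38, Cxcl9 (ENSMUSG00000029417) lies on chromosome 5 at 92321347 to 92328079 and Cxcl10 (ENSMUSG00000034855) at 92346638 to 92348889, both on the minus strand. The 250 bases before each start, from RefSeq on GRCm38.p6 and written 5′ to 3′ along the gene, are shown because the results turn on these neighbouring ligand genes. Capitals mark the letters that matched a searched motif. The Cxcl9 window is chr5:92328080-92328329 and the Cxcl10 window is chr5:92348890-92349139, both read on the minus strand.
Cxcl9: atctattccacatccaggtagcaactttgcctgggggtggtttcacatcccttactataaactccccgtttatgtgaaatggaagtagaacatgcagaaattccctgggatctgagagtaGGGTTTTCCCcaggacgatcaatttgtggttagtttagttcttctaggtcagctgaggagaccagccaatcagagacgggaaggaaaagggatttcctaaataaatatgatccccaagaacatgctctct
Cxcl10: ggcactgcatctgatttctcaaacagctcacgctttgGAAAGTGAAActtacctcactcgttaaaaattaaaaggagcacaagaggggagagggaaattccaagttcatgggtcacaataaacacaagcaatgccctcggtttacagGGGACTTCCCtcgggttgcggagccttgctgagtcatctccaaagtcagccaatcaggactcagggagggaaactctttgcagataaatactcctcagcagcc

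The Cxcl9 window held a match to the kappa B pattern (GGG, any 2 bases, TT, any base, CC), GGGTTTTCCC, at 130 to 121 bases before the start. In the Cxcl10 window a match to the same pattern, GGGACTTCCC, lay at 103 to 94 bases, and a match to the interferon-stimulated element core (GAAA, any 2 bases, GAAA), GAAAGTGAAA, at 213 to 204 bases. Both strands were searched, and the patterns share no matched base in these windows. Of 32851 RefSeq promoter windows of this length, 4.11% held the kappa B pattern and 2.98% the interferon-stimulated core. All 5 genes had an entry. Ifngr2 had a kappa B match on the opposite strand, and Cxcr3 and Ifngr1 had neither pattern. A further pattern that was searched is not reported here. A match describes letters only, and no binding was measured.

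The libraries held 8054 and 11316 barcodes in the SBM+imiquimod and imiquimod groups, with 20837259 and 28920316 counts and medians of 1762 and 1617 counts a cell. After filtering, 7863 and 11019 cells were kept, and 49 barcodes occurred in both libraries. The doublet caller Scrublet marked 83 cells of the SBM+imiquimod library and 0 of the imiquimod library, so doublets were in effect not removed from the imiquimod library. Cells were sorted into classes by marker genes, and 11 classes had at least 50 cells in each library. The share of T and NK cell-like cells was 6.5% with SBM+imiquimod and 22.9% with imiquimod. Levels below are counts per 1000000 counts of a class (CPM), ratios are log2 of SBM+imiquimod over imiquimod, and bracketed ranges are 95% intervals that cover counting error only. The error between mice could not be estimated, and a difference between classes or libraries is set against counting error alone.

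Over all retained cells, the ligand genes were higher and the 3 receptor genes lower with SBM+imiquimod. Cxcl9 had 515 counts and 25.2 CPM with SBM+imiquimod, against 532 counts and 18.7 CPM with imiquimod, a log2 ratio of 0.43 (0.25 to 0.61). Cxcl10 had 2977 counts and 146 CPM, against 2696 counts and 94.9 CPM with imiquimod (0.62, 0.54 to 0.69). Cxcr3 had 33 counts and 1.61 CPM, against 119 counts and 4.19 CPM (-1.36, -1.98 to -0.81). Ifngr1 stood at 70.9 CPM with SBM+imiquimod and 109 CPM with imiquimod (-0.63), and Ifngr2 at 32.9 and 46.5 CPM (-0.50). These sums carry the different class make-up of the libraries, and the values by class follow.

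**Figure D1:**
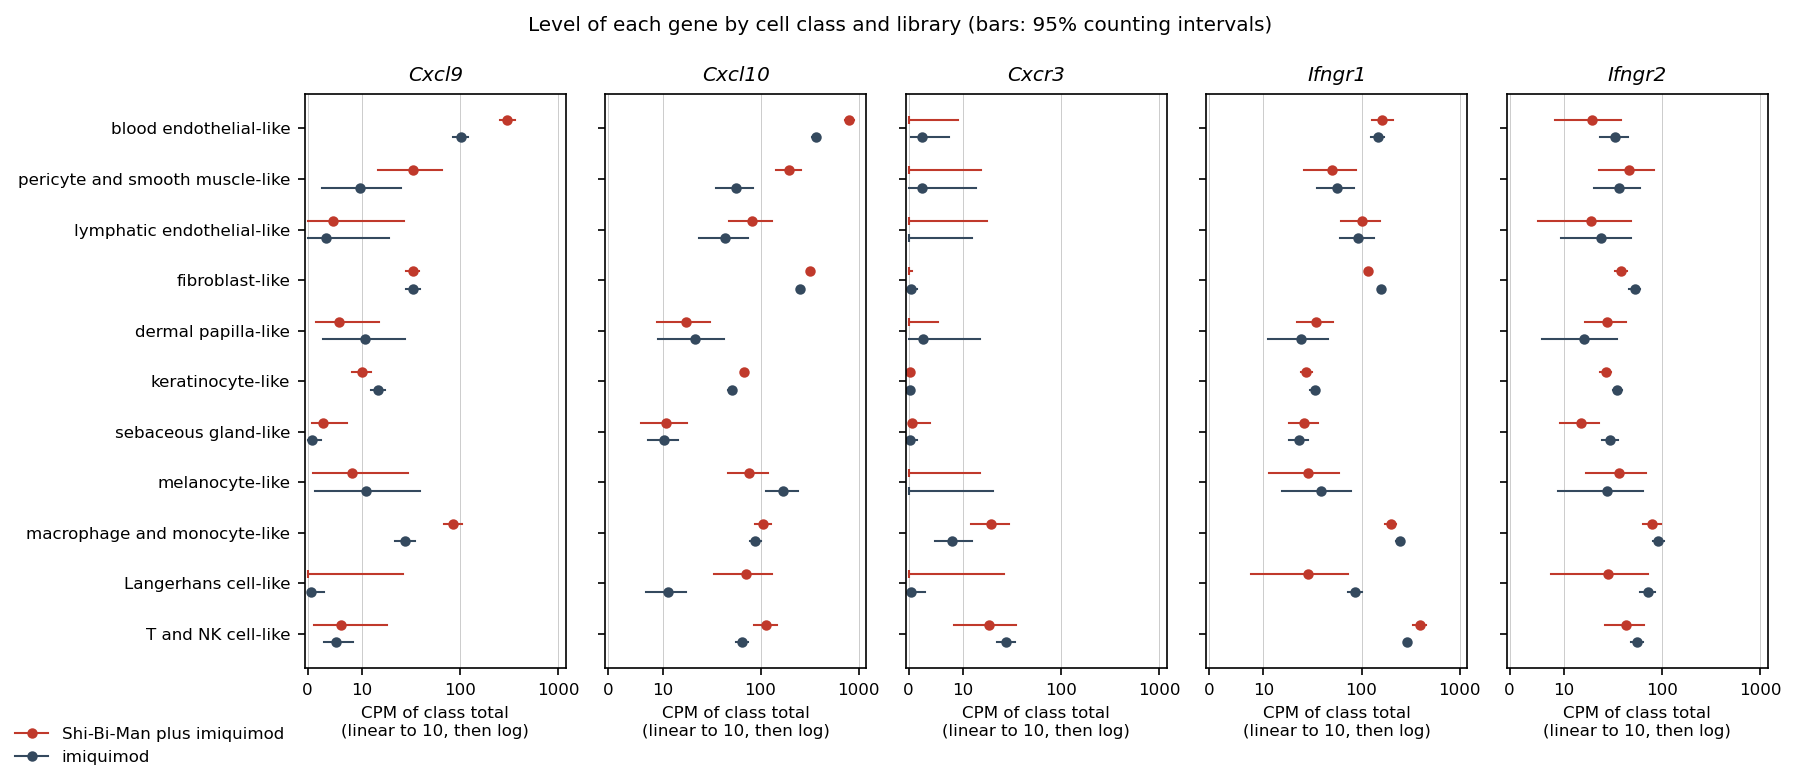
Level of each of the 5 genes in 11 cell classes, as counts per 1000000 counts of the class (axis linear to 10, then logarithmic); points are class sums, bars are 95% counting intervals, and the SBM+imiquimod library is drawn above the imiquimod library. Among these classes both ligand genes are highest in blood endothelial-like cells (Cxcl10 at 804 CPM with SBM+imiquimod and 369 CPM with imiquimod). Cxcr3 rests on T and NK cell-like and macrophage and monocyte-like cells.

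Blood endothelial-like cells had the highest level of both ligand genes in each library, and both genes were higher there with SBM+imiquimod. Cxcl9 had 125 counts in 246 cells of the SBM+imiquimod library, at 305 CPM (254 to 363), and 121 counts in 501 cells of the imiquimod library, at 102 CPM (84.6 to 122). The intervals did not overlap, and the log2 ratio was 1.58 (1.21 to 1.95). Cxcl10 had 330 counts at 804 CPM (720.0 to 896) with SBM+imiquimod and 438 counts at 369 CPM with imiquimod, a log2 ratio of 1.12 (0.91 to 1.33). Of the genes measured in this class (at least 20 counts over both libraries), 13.5% were at least 1.5-fold higher with SBM+imiquimod and 18.5% lower. The class, although small, held 24.3% of all Cxcl9 counts of the SBM+imiquimod library and 22.7% of those of the imiquimod library. In single fibroblast clusters, given below, Cxcl10 stood higher than in the endothelial class.

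The share of endothelial cells with a ligand transcript was also higher with SBM+imiquimod, but with overlapping intervals at 500 counts a cell. Before thinning, 17.5% of cells had a Cxcl9 count with SBM+imiquimod and 10.8% with imiquimod, and 41.9% and 25.5% had a Cxcl10 count. Median depth was 1248 counts a cell with SBM+imiquimod and 1861 with imiquimod. With every cell thinned to 500 counts, Cxcl9 was found in 8.94% of SBM+imiquimod cells (5.69 to 13.2) and 4.79% of imiquimod cells (3.09 to 7.04). Cxcl10 was found in 20.7% (15.8 to 26.3) and 13% (10.2 to 16.2). T and NK cell-like cells, taken as a gauge of free RNA, gave 0.391% and 0.119% for Cxcl9 and 4.11% and 2.58% for Cxcl10 in the same library order, at median depths of 779 and 1008. The endothelial shares lay above these in both libraries. The Cxcl10 level of the gauge class itself was 114 CPM with SBM+imiquimod and 64.5 CPM with imiquimod (0.83, 0.37 to 1.26), in a class where 19.4% of measured genes were at least 1.5-fold higher and 15.9% lower. Single cells of the gauge class held up to 10 Cxcl10 counts with SBM+imiquimod and 25 with imiquimod (17.9% and 12.5% of its Cxcl10 counts). How much of the gauge is free RNA was not tested.

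The endothelial class was 1 cluster led by Selp, Fabp4 and Sele, in which 12 of 13 blood endothelial markers were supported. All 5 venular markers (Selp, Sele, Ackr1, Vwf, Vcam1), typical of the vessels through which leukocytes leave the blood, were supported in it and 1 of 7 capillary and arterial markers. Cells with more venular than capillary counts numbered 189 with SBM+imiquimod and 301 with imiquimod, and 20 and 47 cells had equal counts of the 2 lists. In the more venular cells Cxcl9 stood at 396 CPM with SBM+imiquimod and 125 CPM with imiquimod (1.66, 1.25 to 2.08), and Cxcl10 at 987 and 502 CPM (0.98, 0.75 to 1.2). The more capillary cells numbered 37 with SBM+imiquimod and 153 with imiquimod. Cxcl9 in them had 0 counts (0 to 48.7 CPM) and 30 counts, in 13 cells (69.9 CPM, 47.2 to 99.8). These intervals overlapped narrowly, and the interval of the log2 ratio had an upper limit of -0.43. A direction opposite to the more venular cells thus rests on few cells. Cxcl10 in the more capillary cells stood at 225 and 156 CPM (0.56, -0.34 to 1.31). This split was chosen after values were seen.

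Summed markers of T and NK cells in the endothelial class were 43.9 CPM with SBM+imiquimod (5 of 12 markers at 0) and 477 CPM with imiquimod (0 at 0). Summed macrophage markers were 344 CPM (3 of 14 at 0) and 478 CPM (0 at 0) in the same order. Without cells holding a count of Ptprc, Cd3e, Cd3g or Csf1r, the endothelial Cxcl9 ratio was 1.44. Summed fibroblast markers were 1909 CPM with SBM+imiquimod and 1089 CPM with imiquimod, and their part in the result was not tested.

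Fibroblast-like cells, the class with the most ligand counts, held 55.1% of the Cxcl10 counts of the SBM+imiquimod library and 43.3% of those of the imiquimod library. Cxcl10 stood at 321 CPM (306 to 337) with SBM+imiquimod and 250 CPM with imiquimod, a log2 ratio of 0.36 (0.25 to 0.47) that was under 1.5-fold. At 500 counts a cell it was found in 10.1% of cells with SBM+imiquimod and 8.0% with imiquimod. Cxcl9 had 168 counts at 32.9 CPM with SBM+imiquimod and 156 counts at 33.4 CPM with imiquimod (-0.02, -0.35 to 0.30).

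Within fibroblast clusters the differences were larger than in the class, and the mix of clusters differed between libraries. Cxcl10 was higher with SBM+imiquimod in all 5 fibroblast clusters, by log2 ratios of 0.80 to 1.85. The highest levels were in cluster 18, led by Smpd3, Cxcl13 and Anxa3 (115 and 238 cells with SBM+imiquimod and with imiquimod), at 1309 and 389 CPM (1.75, 1.45 to 2.05), and in cluster 5, led by Thbs4, Myoc and Gpx3 (337 and 643 cells), at 1091 and 510 CPM (1.10, 0.96 to 1.24). With the clusters weighted as in the imiquimod library, the class ratio was 1.24 for Cxcl10 and 1.08 for Cxcl9.

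The direction for Cxcl9 differed between these clusters. It had 33 counts with SBM+imiquimod and 5 with imiquimod in cluster 18 (171 and 13.2 CPM; 3.58, 2.33 to 5.41) and 106 counts in each library in cluster 5 (142 and 60.2 CPM; 1.24, 0.84 to 1.64). It was lower with SBM+imiquimod in cluster 13, led by Sema3a, Igfbp2 and Mme (16 and 24 counts, 16 and 59.9 CPM, -1.89), and in cluster 9, led by Coch, Lrrc15 and Fmod (4 and 17 counts, -2.09). These clusters were built without the 5 genes and the other listed interferon genes, so no ligand count set a cluster. Genes outside the lists were not taken out, and whether the clusters follow an interferon response was not tested.

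**Figure D2:**
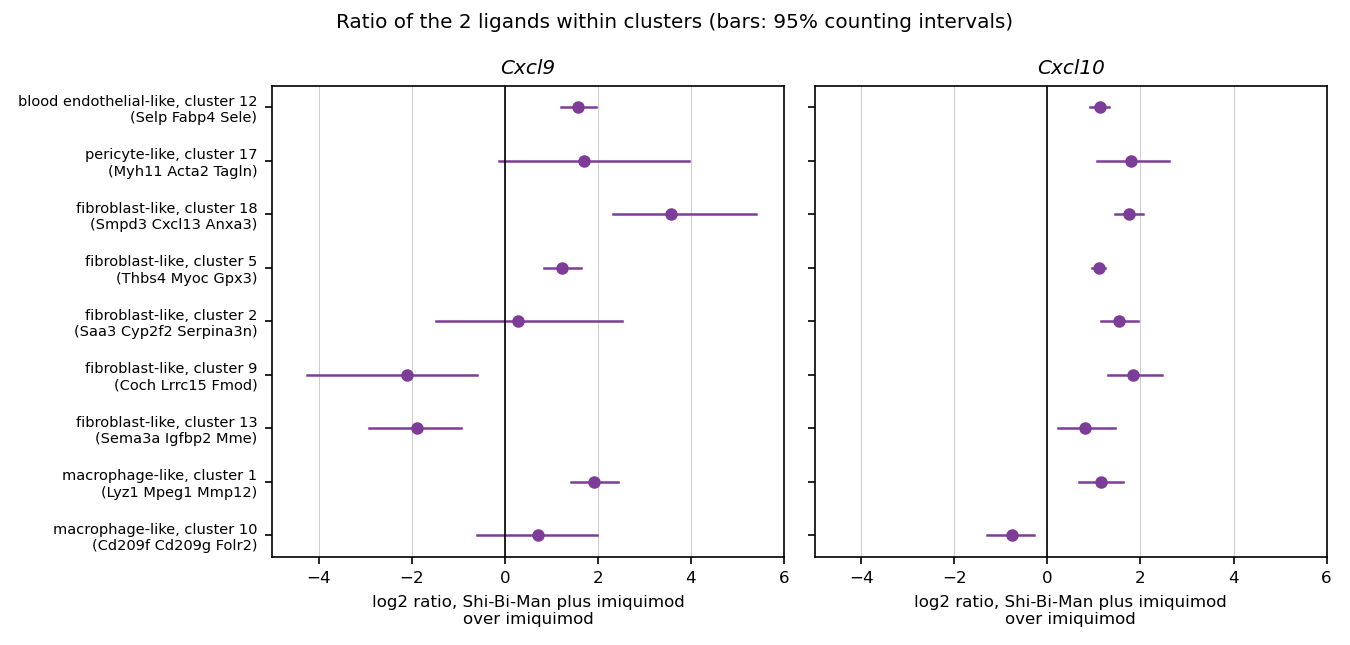
Log2 ratio of Cxcl9 and Cxcl10, SBM+imiquimod over imiquimod, within blood endothelial-like, pericyte-like, fibroblast-like and macrophage-like clusters; points are ratios of cluster sums and bars are 95% counting intervals. Cxcl10 lies above 0 in all 5 fibroblast clusters (0.80 to 1.85), while Cxcl9 lies between -2.09 and 3.58 among them, and Cxcl10 lies below 0 in macrophage-like cluster 10 (-0.76).

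Among macrophage and monocyte-like cells, Cxcl9 was higher with SBM+imiquimod but rested on few cells. It had 92 counts at 85.3 CPM with SBM+imiquimod and 72 counts at 27.4 CPM with imiquimod (1.63, 1.18 to 2.10). Those counts came from 19 of 759 cells with SBM+imiquimod and 20 of 1556 with imiquimod. The 5 cells with the most Cxcl9 held 71.7% of the counts with SBM+imiquimod and 61.1% with imiquimod. With the top cell of each library left out, the ratio was 1.44. In this class 13.7% of measured genes were at least 1.5-fold higher and 11.7% lower.

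Cxcl10 in the macrophage class stood at 107 CPM with SBM+imiquimod and 88.7 CPM with imiquimod (0.27, -0.07 to 0.59). At 500 counts a cell it was found in 4.22% of these cells with SBM+imiquimod and 3.21% with imiquimod. These shares were close to those of the T and NK gauge class, 4.11% and 2.58%, which may not be free RNA alone. The gauge class stood at 114 CPM with SBM+imiquimod, and the intervals of the 2 classes overlapped. With imiquimod the gauge class stood at 64.5 CPM (55.8 to 74.0), below the macrophage interval (77.7 to 101). Of the macrophages, 4 with SBM+imiquimod and 10 with imiquimod had 5 or more Cxcl10 counts. The part of free RNA in the class level was not tested. The Cxcl9 shares, 1.58% with SBM+imiquimod and 0.771% with imiquimod, lay above their gauge.

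The clusters of the macrophage class differed. Cluster 1, led by Lyz1, Mpeg1 and Mmp12 (466 cells with SBM+imiquimod and 1061 with imiquimod), held 81 and 59 of the Cxcl9 counts (122 and 32.2 CPM; 1.91, 1.41 to 2.42), with Cxcl10 at 107 and 48.1 CPM (1.15). Cluster 10, led by Cd209f and supported for 6 of 7 resident dermal macrophage markers (293 and 495 cells), had 11 and 13 Cxcl9 counts (0.71, -0.60 to 1.98). Its Cxcl10 went the other way, with 44 counts at 107 CPM with SBM+imiquimod and 145 counts at 182 CPM with imiquimod (-0.76, -1.30 to -0.28). Summed dendritic cell markers in the macrophage class were 1157 CPM with SBM+imiquimod and 629 CPM with imiquimod (0 of 9 markers at 0 in either), no cluster was named as dendritic cells, and their part in the Cxcl9 result was not tested.

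Pericyte and smooth muscle-like cells, which wrap small vessels, had 47 Cxcl10 counts at 196 CPM with SBM+imiquimod and 23 counts at 55.6 CPM with imiquimod (1.80, 1.07 to 2.60). Of these counts, 68.1% with SBM+imiquimod and 52.2% with imiquimod lay in 5 cells, and without the top cell of each library the ratio was 1.57. In this class 14.7% of measured genes were at least 1.5-fold higher and 16.2% lower. At 500 counts a cell, Cxcl10 was found in 4.74% of cells with SBM+imiquimod and 3.08% with imiquimod, near the gauge in T and NK cell-like cells. Cxcl9 had 8 and 4 counts (1.70, -0.12 to 3.97). Art3 is a gene that overlaps Cxcl10 on the other strand, and whether their exons overlap was not examined. Art3 had 27 counts with SBM+imiquimod and 36 with imiquimod in pericytes (113 and 87.1 CPM), 127 and 96 in fibroblasts, and 4 and 18 in endothelial cells. Whether counting used strand is not given in the sources used here, so reads of Cxcl10 and Art3 may not be separated.

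Keratinocyte-like cells, the class with the most counts, had low levels of both ligand genes. Cxcl9 stood at 10.03 CPM with SBM+imiquimod and 14.6 CPM with imiquimod (-0.54, -0.93 to -0.16), and 47 of the 143 imiquimod counts were in 1 cell. The Cxcl9 ratio was -0.11 with the top cell of each library left out and -1.90 with cells clustered at resolution 2. Cxcl10 stood at 67.6 CPM with SBM+imiquimod and 50.9 CPM with imiquimod (0.41, 0.24 to 0.58), a ratio that ran from -0.21 with cells clustered at resolution 2 to 0.88 with clusters weighted as in the imiquimod library. Thinned to 500 counts a cell, Cxcl10 was found in 2.78% of keratinocytes with SBM+imiquimod and 2.21% with imiquimod. These shares lay below those of the T and NK gauge class, 4.11% and 2.58%, which may not be free RNA alone. Median depths were 3070 and 3492.5 in keratinocytes and 779 and 1008 in the gauge class, so the gauge comes from shallower cells. Of the keratinocytes, 31 with SBM+imiquimod and 26 with imiquimod had 5 or more Cxcl10 counts. The part of free RNA in the class level was not tested. Different clusters made up the class in each library: cluster 7 had 897 cells with SBM+imiquimod and 31 with imiquimod, cluster 20 had 242 and 1, and cluster 4 had 212 and 801. In cluster 3, led by Lhx2, Ptn and Gm973, Cxcl9 had 66 counts with SBM+imiquimod and 14 with imiquimod (31.6 and 6.89 CPM, 2.16) and Cxcl10 stood at 152 and 60.1 CPM (1.34). In cluster 16, led by Lsmem1, Tango6 and Serpinb10, Cxcl9 had 10 and 48 counts and Cxcl10 stood at 73.4 and 177 CPM (-1.28).

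The remaining classes had few ligand counts. Cxcl9 had at most 4 counts a library in Langerhans cell-like, lymphatic endothelial-like, sebaceous gland-like, dermal papilla-like and melanocyte-like cells. Cxcl10 in Langerhans cell-like cells had 10 counts with SBM+imiquimod, 8 of them in 1 cell, and 21 with imiquimod. In lymphatic endothelial-like cells it had 17 and 13 counts (81.0 and 43.9 CPM; 0.87, -0.25 to 2.05), and in melanocyte-like cells 19 and 31 (76.8 and 169 CPM, -1.12), a class in which 33.2% of measured genes were at least 1.5-fold higher and 16.2% lower. In sebaceous gland-like cells it stood at 10.7 and 10.4 CPM. The closely related Cxcl11, annotated as a polymorphic pseudogene, had 4 and 6 counts over the libraries.

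The order of Cxcl9 levels with SBM+imiquimod was endothelial, then macrophage, then pericyte and fibroblast classes whose intervals overlapped, then keratinocyte. With imiquimod it was endothelial, then fibroblast and macrophage classes whose intervals overlapped, then keratinocyte. Among the classes, Cxcl10 was highest in the endothelial class and next in fibroblasts in the SBM+imiquimod library. The fibroblast class pools clusters, and its clusters 18 and 5 stood above the endothelial class for Cxcl10 in that library.

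In endothelial cells and fibroblasts, cells with a Cxcl9 count carried Cxcl10 more often than the other cells of their class. At 500 counts a cell, Cxcl10 was found in 13 of 22 endothelial cells with Cxcl9 (59.1%, 36.4 to 79.3) and 38 of 224 without (17%) in the SBM+imiquimod library. With imiquimod it was found in 12 of 24 endothelial cells with Cxcl9 (50%, 29.1 to 70.9) and 53 of 477 without (11.1%). In fibroblasts the shares were 14 of 31 (45.2%) and 216 of 2238 (9.65%) with SBM+imiquimod, and 11 of 20 (55.0%) and 154 of 2042 (7.54%) with imiquimod. Macrophages with both were few, at 2 of 12 cells with Cxcl9 in each library. In T and NK cells with SBM+imiquimod 0 of 2 cells with Cxcl9 had Cxcl10, and cells of 1 library are not replicates. Gbp2, an interferon-γ-induced GTPase gene, was found in 5 of 12 macrophages with Cxcl9 (41.7%) and 59 of 747 without (7.90%) with SBM+imiquimod, and in 3 of 12 (25.0%) and 40 of 1544 (2.59%) with imiquimod. Not every pair showed this. Irf1 was found in 3 of 12 macrophages with Cxcl9 with SBM+imiquimod but in 0 of 12 with imiquimod (4.79% without Cxcl9). In endothelial cells Irf1 was found in 22.7% of cells with Cxcl9 and 21.9% without with SBM+imiquimod, and in 12.5% and 11.1% with imiquimod. Gbp2 was found in 15.7% of endothelial cells with Cxcl10 and 17.4% without with SBM+imiquimod.

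**Figure D3:**
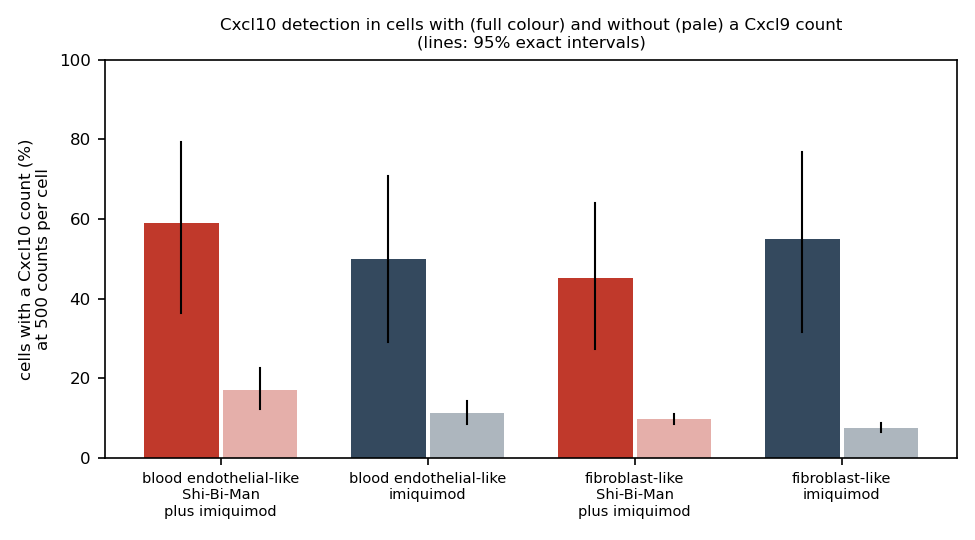
Share of cells with a Cxcl10 count among cells with a Cxcl9 count (full colour) and without one (pale), in blood endothelial-like and fibroblast-like cells of each library, every cell thinned to 500 counts; lines are 95% exact intervals. In each of the 4 pairs the cells with Cxcl9 stand higher, as in endothelial cells with SBM+imiquimod at 59.1% and 17%. Each class is pooled over its clusters or subsets.

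Cxcr3, the receptor gene, lies on the X chromosome at 101731535 to 101734269 (ENSMUSG00000050232, minus strand) and was sparse. T and NK cell-like cells had 9 counts at 18.4 CPM (8.39 to 34.8) with SBM+imiquimod and 86 counts at 27.7 CPM with imiquimod (-0.52, -1.77 to 0.40), which the depth could not tell apart. They held 27.3% of all Cxcr3 counts of the SBM+imiquimod library and 72.3% of those of the imiquimod library. At 500 counts a cell, Cxcr3 was found in 0.587% of these cells with SBM+imiquimod and 1.27% with imiquimod, against 0 keratinocyte-like cells in either library. The direction was not fixed: the ratio was -1.34 with T and NK clusters weighted as in the imiquimod library and 0.04 with cells of at least 500 genes.

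Nearly all T and NK Cxcr3 counts lay in cluster 8, led by Ccl5, Gzmc and Ighm (211 cells with SBM+imiquimod and 688 with imiquimod). There it had 9 counts at 43.5 CPM with SBM+imiquimod and 80 counts at 103 CPM with imiquimod (-1.17, -2.42 to -0.24). Cluster 8 also had markers of αβ T cells (Trac, Cd5, Cd6) and of dendritic epidermal T cells, and it was not taken as a single subset. Cluster 0, with 7 of 7 markers of IL-17-type γδ T cells (178 and 1720 cells), had 0 Cxcr3 counts with SBM+imiquimod and 5 with imiquimod, and cluster 21, with 5 of 7 markers of dendritic epidermal T cells, had 0 and 1. Summed B and plasma cell markers in the T and NK class were 97.9 CPM with SBM+imiquimod (5 of 8 at 0) and 3589 CPM with imiquimod (2 of 8 at 0), and their part in the result was not tested.

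Macrophage and monocyte-like cells had 21 Cxcr3 counts in each library, at 19.5 CPM with SBM+imiquimod and 8.0 CPM with imiquimod (1.28, 0.34 to 2.23). That was 63.6% of the Cxcr3 counts of the SBM+imiquimod library and 17.6% of those of the imiquimod library. In cluster 10 it had 13 counts with SBM+imiquimod and 6 with imiquimod (31.5 and 7.55 CPM; 2.0, 0.56 to 3.74), and in cluster 1 it had 8 and 15 (0.59). T and NK markers in this class summed to 101 CPM with SBM+imiquimod and 280 CPM with imiquimod (0 of 12 at 0 in either). Fibroblast-like cells had 0 and 2 Cxcr3 counts and endothelial cells 0 and 3.

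Ifng, the gene of the ligand of the interferon-γ receptor and not itself among the 5, had its counts almost wholly in T and NK cell-like cells. It had 77 counts at 157 CPM with SBM+imiquimod and 121 counts at 39.0 CPM with imiquimod (2.01, 1.58 to 2.43), and was found in 3.91% and 1.59% of these cells at 500 counts a cell. All 77 counts with SBM+imiquimod and 118 of those with imiquimod were in cluster 8, where the levels were 372 and 151 CPM (1.30, 0.86 to 1.72). Cluster 8 thus held most T and NK counts of both Cxcr3, lower there with SBM+imiquimod, and Ifng, higher there. At 500 counts a cell, 3 of the 32 imiquimod T and NK cells with Cxcr3 had an Ifng count.

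**Figure D4:**
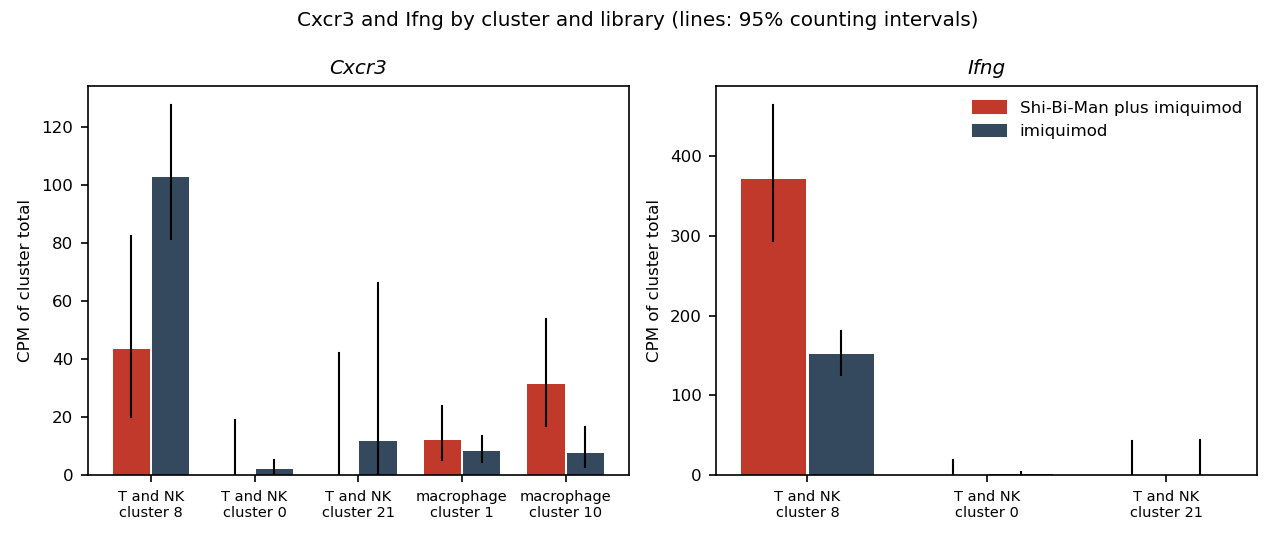
Cxcr3 in T and NK cell-like and macrophage-like clusters and Ifng in T and NK cell-like clusters, as counts per 1000000 counts of the cluster; bars are cluster sums for the SBM+imiquimod library (left of each pair) and the imiquimod library, and lines are 95% counting intervals. In cluster 8, Cxcr3 stands at 43.5 CPM with SBM+imiquimod and 103 CPM with imiquimod, and Ifng at 372 and 151 CPM.

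Around Cxcr3, genes of type 1 lymphocytes and of other chemokine receptors were read in the same T and NK cells. All 13 listed type 1 lymphocyte genes were measured, and 9 were at least 1.5-fold higher with SBM+imiquimod and 0 lower, with a median log2 ratio of 1.10 against 0.04 over all 10506 measured genes of the class, of which 19.4% were higher and 15.9% lower. The clusters of the class differed in share: cluster 8 had 211 of 511 cells with SBM+imiquimod and 688 of 2523 with imiquimod, cluster 0 had 178 and 1720, and cluster 21 had 122 and 115. Within cluster 8, 5 of 11 measured type 1 genes were higher and 1 lower (median 0.30, against -0.01; 14.7% of measured genes of the cluster were higher and 17.9% lower). Within cluster 0, 1 of 10 was higher and 4 were lower (25% of measured genes of the cluster were higher and 19.1% lower). Ccl5, a chemokine gene, stood at 4153 and 579 CPM with SBM+imiquimod and with imiquimod (2.84), Il12rb2, an IL-12 receptor chain, at 89.8 and 13.9 CPM (2.69), and Tbx21, encoding T-bet, at 65.3 and 34.2 CPM (0.95). The cytotoxic genes Prf1 and Gzmb had log2 ratios of 1.97 and 1.61. Within cluster 8, which Ccl5 leads, the ratios were 2.18 for Ccl5, 0.65 for Il12rb2 (-0.54 to 1.68), 0.30 for Tbx21 (-0.36 to 0.89), 0.93 for Prf1 and 1.46 for Gzmb. The 1 listed gene that was lower in cluster 8 is not among these 5 and is not reported here by name.

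Of 12 measured lymphocyte chemokine receptor genes, 2 were higher and 2 lower, near the 19.4% and 15.9% of all measured genes of the class. Cxcr6, the receptor of CXCL16, stood at 685 CPM with SBM+imiquimod and 1371 CPM with imiquimod (-1.0). It is among the leading genes of cluster 0, where it stood at 1140 and 1748 CPM (-0.61, -0.82 to -0.42), and it stood at 454 and 412 CPM in cluster 8 (0.15, -0.21 to 0.48). Ccr8 stood at 73.4 and 31.9 CPM (1.22). Of the 32 imiquimod T and NK cells with a Cxcr3 count at 500 counts a cell, 6 had Cxcr6 (18.8%), against 40.6% of the T and NK cells without Cxcr3.

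Ifngr1, on chromosome 10 at 19591949 to 19610229 (ENSMUSG00000020009, plus strand), encodes the ligand-binding chain and was found in every class with at least 50 cells a library. Its highest level was in T and NK cell-like cells, at 391.6 CPM (192 counts) with SBM+imiquimod and 291 CPM (902 counts) with imiquimod, a log2 ratio of 0.43 (0.20 to 0.66). It was lower with SBM+imiquimod in macrophages, at 198 and 244 CPM (-0.30, -0.53 to -0.08), and in fibroblasts, at 116 and 160 CPM (-0.45, -0.61 to -0.30). In endothelial cells it stood at 163 and 146 CPM (0.17, -0.27 to 0.58), and in keratinocytes at 27.4 and 33.2 CPM (-0.27, but 0.05 with clusters weighted as in the imiquimod library). In Langerhans cell-like cells it had 4 counts with SBM+imiquimod and 158 with imiquimod (28.2 and 85.7 CPM; -1.44, -3.50 to -0.22). Of these ratios only that of Langerhans cell-like cells reached 1.5-fold, in a class where 21% of measured genes were at least 1.5-fold higher and 26.6% lower.

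The T and NK clusters did not share 1 direction for Ifngr1. It stood at 507 CPM with SBM+imiquimod and 421 CPM with imiquimod in cluster 8, at 307 and 237 CPM in cluster 0, and at 309 and 523 CPM (-0.75) in cluster 21. Lymphatic endothelial-like cells had 21 and 27 counts (0.14, -0.76 to 1.01) and pericytes 50.03 and 55.6 CPM (-0.13). Among fibroblasts, cluster 9 stood at 81.0 and 172 CPM (-1.08).

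Ifngr2, on chromosome 16 at 91547072 to 91565623 (ENSMUSG00000022965, plus strand), encodes the chain needed for signalling. Among the 11 classes it was highest in macrophages, at 79.7 CPM with SBM+imiquimod and 91.4 CPM with imiquimod (-0.19, -0.57 to 0.16). The macrophage intervals, 63.7 to 98.4 and 80.2 to 104, overlapped the next class in each library. That was pericytes with SBM+imiquimod (45.9 CPM, 22.9 to 82.0) and Langerhans cell-like cells with imiquimod (71.6 CPM, 59.9 to 84.9). T and NK cells had 42.8 and 55.8 CPM (-0.35, -1.11 to 0.28), fibroblasts 38.6 and 52.4 CPM (-0.44, -0.72 to -0.17) and keratinocytes 26.7 and 34.9 CPM (-0.39). Endothelial cells had 8 counts with SBM+imiquimod and 39 with imiquimod (-0.68, -2.06 to 0.36). Sebaceous gland-like cells had 15 CPM and 29.6 CPM (-0.95, -1.73 to -0.29), where 13.8% of measured genes were at least 1.5-fold higher and 9.23% lower. In dermal papilla-like cells it had 19 and 6 counts (27.4 and 16.03 CPM; 0.70, -0.61 to 2.39), where 31.6% of measured genes were at least 1.5-fold higher and 13.4% lower. Scaling by TMM moved the median of all genes by 0.27 in that class, 0.23 in melanocyte-like and -0.12 in Langerhans cell-like cells, and by under 0.1 in the other classes compared.

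Genes known to be induced by interferon-γ were then read by class. Of 25 listed GTPase and antigen presentation genes, 18 were measured in endothelial cells. Of these, 10 were at least 1.5-fold higher with SBM+imiquimod and 0 lower. Of all measured genes of the class, 13.5% were higher and 18.5% lower. The median log2 ratio of the list was 0.69, against -0.04 over all measured genes of the class. Cd274, encoding PD-L1, stood at 156 CPM with SBM+imiquimod and 42.1 CPM with imiquimod (1.89), the GTPase gene Iigp1 at 2652 and 1645 CPM (0.69) and Gbp2 at 383 and 238 CPM (0.69). B2m, the light chain of MHC class I, had a ratio of -0.03.

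In macrophages 10 of 18 measured genes of the same list were higher and 0 lower (median 0.69, against 0.02). Of all measured genes of that class, 13.7% were higher and 11.7% lower. Tgtp2 stood at 74.1 and 17.9 CPM with SBM+imiquimod and with imiquimod (2.04), Gbp2 at 209 and 60.2 CPM (1.80) and Iigp1 at 216 and 69.7 CPM (1.63). In pericytes 5 of 9 were higher and 0 lower (median 0.84, against -0.01), with Gbp2 at 304 and 58.1 CPM (2.37). Of all measured genes of the pericyte class, 14.7% were higher and 16.2% lower. In lymphatic endothelial-like cells, where ligand counts were few, 8 of 13 were higher and 0 lower (median 0.79, against 0.04; 18.6% of measured genes of the class were higher and 13.5% lower).

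The other classes differed in these counts. In fibroblasts 0 of 17 measured genes were higher or lower by 1.5-fold (median 0.29, against 0.02). Of all measured genes of the class, 9.55% were higher and 10.5% lower. Cxcl10 in the fibroblast class was also under 1.5-fold (0.36). The mix of fibroblast clusters differed between the libraries, and this list was not counted within them. In T and NK cells 5 of 16 were higher and 0 lower (median 0.02, against 0.04; 19.4% and 15.9% of all measured genes). In keratinocytes 4 of 18 were higher and 4 lower (median -0.12, against -0.01; 14.1% of measured genes of the class were higher and 12.2% lower), with the immunoproteasome gene Psmb8 at -1.26 and Cd274 at 0.93. Keratinocyte clusters 7, 20 and 4 differed in cell number between the libraries, as given above, and the part of this in the count was not tested. Differences between classes in these medians were not tested.

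**Figure D5:**
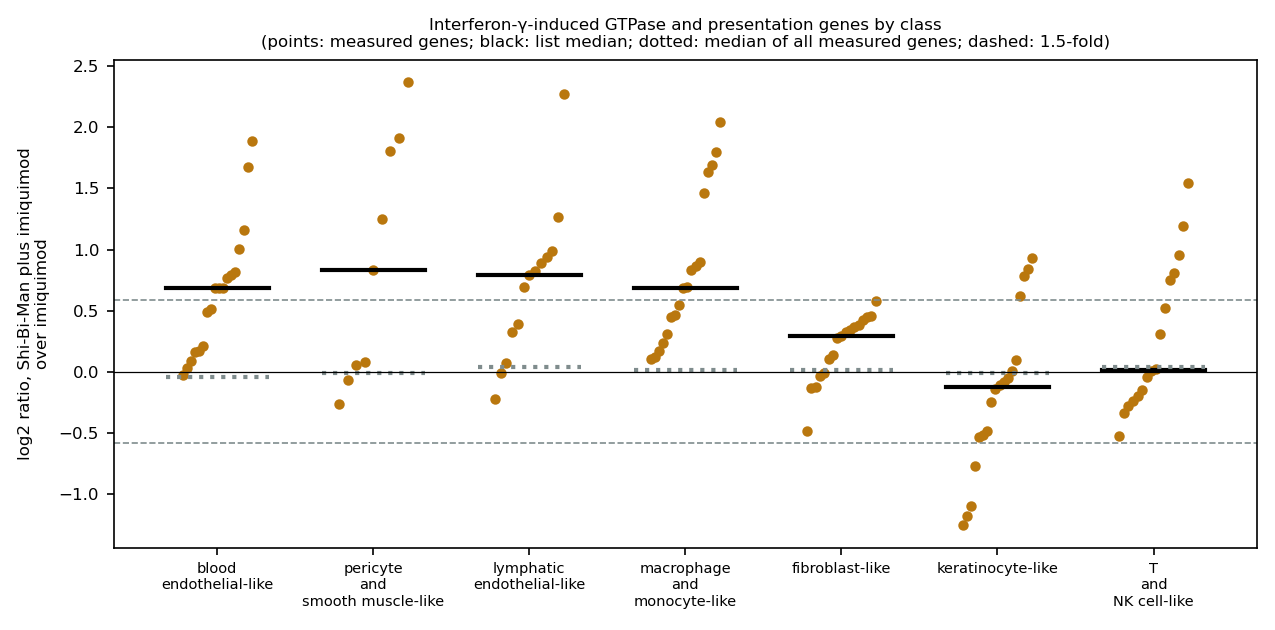
Log2 ratio, SBM+imiquimod over imiquimod, of measured interferon-γ-induced GTPase and presentation genes in 7 classes; points are genes, black lines list medians, dotted lines the median of all measured genes of the class and dashed lines 1.5-fold. The list median is 0.69 in blood endothelial-like and in macrophage and monocyte-like cells, 0.29 in fibroblast-like cells and -0.12 in keratinocyte-like cells.

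Genes of the receptor's own signalling path and its brakes formed a list of 12. Of 10 measured in endothelial cells, 4 were higher and 1 lower (median 0.39, against -0.04; 13.5% of measured genes of the class were higher and 18.5% lower), with Socs3, a feedback inhibitor, at 1792 and 818 CPM with SBM+imiquimod and with imiquimod (1.13), Irf1, an interferon-induced transcription factor, at 497 and 254 CPM (0.97) and the phosphatase gene Ptpn6 at -2.24. In macrophages 3 of 10 were higher and 0 lower (median 0.27, against 0.02; 13.7% and 11.7%), with Irf1 at 198 CPM with SBM+imiquimod and 105 CPM with imiquimod (0.92). In T and NK cells 4 of 11 were higher and 0 lower (median 0.34, against 0.04; 19.4% and 15.9%), among them Ifng itself, Irf1 (0.72) and Jak2 (0.65). In fibroblasts 0 of 10 passed 1.5-fold (median -0.10, against 0.02; 9.55% and 10.5%), with Irf1 at 0.42.

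Type I interferon response genes were read because type I interferons also induce Cxcl10. In endothelial cells 5 of 15 were higher and 1 lower (median 0.40; 13.5% and 18.5% of all measured genes), with Ifit1 at 531 and 160 CPM with SBM+imiquimod and with imiquimod (1.73), Isg15 at 587 and 244 CPM (1.27) and Oas1a at -1.54. In macrophages 6 of 16 were higher and 1 lower (median 0.50; 13.7% and 11.7% of all measured genes), Mx1 at 1.52 and Ifit1 at -1.07. In fibroblasts 1 of 15 was higher and 2 lower (median 0.01; 9.55% and 10.5% of all measured genes). Tlr7, the sensor of imiquimod, stood at 77.8 CPM with SBM+imiquimod and 43.0 CPM with imiquimod in macrophages (0.86).

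Genes that handle the ligands outside the receptor were also read. Ackr1, a chemokine-binding receptor of venules and one of the venular markers, stood at 1960 CPM with SBM+imiquimod and 1157 CPM with imiquimod in endothelial cells (0.76). Ackr3, a scavenger receptor, stood at 243 and 412 CPM in fibroblasts (-0.76).

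The genes whose levels ran most like each of the 5 were ranked by Pearson's r of log2(CPM + 10) over 25 class-by-library profiles, among 9945 genes. Profiles share libraries, so r is given as a description. Cxcr3 had a mean of 3.34 CPM over the profiles, under the 10 added to each. Its r values rest mainly on the T and NK and macrophage profiles. For Cxcl9 the closest were Ifit3 (0.90), Rtp4 (0.87), Dtx3l (0.81), Gm4951 (0.81) and Vcam1 (0.81). For Cxcl10 they were Ifit3 (0.82), Ly6c1 (0.80), Vcam1 (0.79), Cxcl9 (0.77) and Ablim1 (0.74). For Cxcr3 they were Cd226 (0.98), Ccr2 (0.92), Rhoh (0.89), Ptpn22 (0.88) and Dok2 (0.86). For Ifngr1 they were Sp100 (0.90), Apobec3 (0.88), Shisa5 (0.88), Ostf1 (0.86) and Lgals3bp (0.86), and for Ifngr2 Abr (0.79), Pigs (0.79), Haus8 (0.79), Plekhm3 (0.78) and Bak1 (0.78).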

How the data were processed

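The deposited files hold whole-number counts of 3′ RNA per gene and cell for 1 library a group; the authors' aligner, counter, handling of molecular identifiers and use of strand are not given in the sources used here. The submitters' processing notes name the builds mm10 and GRCm38. The members and gene lists were chosen with earlier results of these data known. Cells with under 200 genes or over 20% mitochondrial counts were left out, Scrublet marked doublets, and cells were clustered in scanpy 1.11.5 (2000 variable genes, 30 components, 15 neighbours, Leiden at resolution 1, leidenalg 0.10.2). The 105 genes of 9 lists, members included, were taken out of the variable genes before clustering, unlike in the earlier processing of these data, so class sizes can differ from it. A class was named "-like" from at least 3 markers that were 2-fold higher than in other cells and found in 10% of its cells.

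Counts were summed by class and library, scaled to 1000000 counts of the class (CPM) with exact Poisson limits (scipy 1.17.1), and compared as log2 ratios with 0.5 added to each count and an exact conditional binomial interval. Shares of cells carry Clopper-Pearson intervals, and cells were thinned to 500 counts to compare shares. All intervals are at 95% and cover counting error only; if amplified copies were counted separately they are too narrow. With 1 library a group there is no replicate check, no p-value was computed, and genes were set apart by 1.5-fold among those with at least 20 counts in the class. In classes, the text names the members, the up to 4 listed genes with the largest ratios, other genes of a list whose counts are given, and the 5 genes most like each member.

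Alternatives were other filters, resolutions, components, scalings (edgeR 4.0.16 TMM and DESeq2 1.42.0 size factors), thinning depths, top cells left out and doublet handling; those on the mix of clusters, on cells with leukocyte RNA and on Cxcr3 in macrophages, Ifng, keratinocytes and Cxcl10 in T and NK cells were chosen after seeing the data. The interval code was tested on simulated data. Gene positions came from GENCODE on GRCm38 by gene ID (99.4% of IDs matched). Promoter windows came from RefSeq. Protein sequences were not used here. Lists were also counted within T and NK clusters, a step added after values were seen. Some listed genes are counted in their lists but not reported here by name.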

Additional observations from a re-analysis of the deposited data

How the results depend on the processing

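Ratios were followed under the alternatives in the T and NK, macrophage, endothelial, fibroblast, keratinocyte and pericyte classes. Of these, no log2 ratio past 1.5-fold changed sign. Ratios of the other classes and of single clusters were not followed. Of the ratios under 1.5-fold, Cxcl10 in keratinocytes was 0.41 and, at resolution 2, -0.21, and Ifngr1 in keratinocytes was -0.27 and 0.05 with clusters weighted as in the imiquimod library. Cxcr3 in T and NK cells changed sign under 1 alternative and Cxcl9 in fibroblasts under 6. Among the main results 229 values stayed within their error and 19 moved. With clusters weighted as in the imiquimod library, the fibroblast ratio was 1.24 for Cxcl10 and 1.08 for Cxcl9. Shares of cells also differed between thinned and unthinned cells. Thinning to 1000 counts leaves out shallower cells: it kept 167 of 246 endothelial cells with SBM+imiquimod and 401 of 501 with imiquimod, 147 of 511 and 1283 of 2523 T and NK cells, and 502 of 759 and 1179 of 1556 macrophages. Thinned to 1000 counts and unthinned, Cxcl9 was found in 17.96% and 17.5% of endothelial cells with SBM+imiquimod and 7.98% and 10.8% with imiquimod, and Cxcl10 in 37.1% and 41.9% with SBM+imiquimod and 17.5% and 25.5% with imiquimod. The share of T and NK cells with Ifngr1 was 25.9% and 25.4% with SBM+imiquimod and 18.2% and 24.7% with imiquimod, and that of macrophages with Ifngr2 was 7.97% and 9.09% with SBM+imiquimod and 8.23% and 12% with imiquimod. Unthinned, Cxcr3 was found in 2.73% of imiquimod T and NK cells.

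Over all alternatives the log2 ratio of Cxcl9 ran from 1.44 to 1.72 in endothelial cells and from 1.37 to 1.76 in macrophages, and that of Cxcl10 from 1.02 to 1.19 in endothelial cells and from 1.51 to 1.93 in pericytes. Cxcl9 in fibroblasts ran from -0.06 to 1.08, Cxcr3 in T and NK cells from -1.34 to 0.04 and Ifng there from 1.26 to 2.04. Cxcl9 in keratinocytes ran from -1.90 to -0.07. The causes were not tested. No paired analysis was possible because each group held 1 library.

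Depth limits Cxcr3 most, with 33 and 119 counts with SBM+imiquimod and with imiquimod, and the capillary endothelial cells. Doublets of the imiquimod library were in effect not removed, spread between mice is unknown, and treatment and library cannot be told apart.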
